A study of Mus musculus with 6 samples.

Results

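The genes described here encode the main cellular enzymes that remove peroxides, namely the peroxiredoxins Prdx1 to Prdx6, the glutathione peroxidases Gpx1 and Gpx4, catalase (Cat) and the electron carrier thioredoxin (Txn1). They were picked out by their symbols in the table of raw counts and are 10 of its 21606 genes. The RNA came from ALDHbr cells, which are bone marrow cells with high activity of aldehyde dehydrogenases, of wild-type (WT) C57BL/6 mice, a common inbred strain. The groups were 3 libraries from female and 3 from male mice, with no treatment named and no age used here. The libraries are BRB-seq libraries: reverse transcription starts from a barcoded oligo-dT primer, samples are pooled, and the reads represent transcript 3′ ends. Whether the replicates of a sex are different animals is not stated in the labels, so the p-values rest on the spread between libraries that may be technical replicates.

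Hydrogen peroxide is made by mitochondria, peroxisomes and oxidases, and at low levels it also acts as a signal. Catalase splits it in peroxisomes with a haem group. Peroxiredoxins reduce it with a reactive cysteine and are recharged mostly by thioredoxin, which in turn takes electrons from NADPH through thioredoxin reductase. Glutathione peroxidases use a selenocysteine and take their electrons from glutathione. In bone marrow, peroxide levels are known to bear on the quiescence and differentiation of blood progenitors, and myeloid cells also use peroxide in their granules through myeloperoxidase.

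Depth and cell markers bear on every value below. Library totals ran from 679724 to 1475224 counts and were on average 1.65 times as large in females. Transcripts of immature myeloid cells, led by Mpo and Prtn3, summed to 15130 to 15795 CPM (counts per 1e+06 counts of the library, scaled by TMM) in females and 13553 to 14628 in males, with 8 of 9 listed genes tested and none called different. Erythroid markers, of which 15 of 16 were in the table and 5 were tested, summed to 195 to 220 CPM in females and 328 to 492 in males. Of the tested genes 2, Car1 and Car2, rose in males, from means of 44.5 to 142 and 37.4 to 109 CPM, and they make up most of that difference. Tfrc went the other way, at -0.28 on the log2 scale, with all female libraries above all male ones. Megakaryocyte markers, led by Pf4, summed to 32.5 to 37.0 CPM in females and 52.4 to 131 in males, and Pf4, the 1 of 7 that was tested, rose by 1.92 on the log2 scale (adjusted p = 0.00107, edgeR). In the mast cell, basophil and eosinophil list directions were mixed. Of its 6 tested genes 4 were above 0 and 5 had an unadjusted p under 0.05 (edgeR). Only Cpa3 was called, and it rose in males. Hdc and Prg2 went the other way, at -0.50 and -0.55 on the log2 scale. In the B lineage list 1 of 3 tested genes rose, Dntt, and 1 fell, Ms4a1. Of 4 tested stromal genes 3 had an unadjusted p under 0.05 and none was called. Markers of lung epithelium, a tissue sequenced in the same pool and led here by Sftpc, summed to 162 to 229 CPM in females and 249 to 522 in males, with 6 of 8 tested and 0 called. No listed marker of these groups that was in the table was at 0 over all libraries, but the haemoglobin gene Hba-a1 had only 17 counts in total. Male replicate 2 had the fewest counts and the highest sum of the erythroid, megakaryocyte and lung lists, and its correlations of log2 CPM with the other libraries were the lowest, from 0.942 to 0.957. In bulk libraries fewer cells of a type and less RNA per cell cannot be told apart.

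The enzymes fall into families by the residue that meets the peroxide, and the reference coding sequence around that codon shows how alike the members of each family are. Each line gives 51 bases of the sense strand from GRCm38 (GENCODE M21), 5′ to 3′, with the codon of the reactive residue in capitals. TGA is the selenocysteine codon, which elsewhere is a stop, and TGT and TGC are cysteine codons.
Gpx1: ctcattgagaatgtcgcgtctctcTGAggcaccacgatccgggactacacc
Gpx4: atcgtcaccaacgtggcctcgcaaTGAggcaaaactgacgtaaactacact
Prdx1: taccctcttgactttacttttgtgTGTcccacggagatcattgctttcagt
Prdx2: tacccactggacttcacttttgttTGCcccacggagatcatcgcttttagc
Prdx3: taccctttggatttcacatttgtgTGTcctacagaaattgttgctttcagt
Prdx4: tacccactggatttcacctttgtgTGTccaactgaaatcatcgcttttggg
Prdx5: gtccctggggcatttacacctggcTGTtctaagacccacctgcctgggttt
Prdx6: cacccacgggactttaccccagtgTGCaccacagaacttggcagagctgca
Txn1: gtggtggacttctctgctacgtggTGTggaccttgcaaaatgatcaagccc

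The selenocysteine codon is codon 47 of Gpx1 (window at chr9:108339427-108339477, plus strand) and codon 73 of the Gpx4 transcript used (chr10:80054713-80054763, plus strand). Reactive cysteines are codon 52 of Prdx1 (chr4:116691799-116691849, plus strand), codon 51 of Prdx2 (chr8:84970459-84970509, plus strand), codon 47 of Prdx6 (chr1:161247344-161247394, minus strand) and codon 32 of Txn1 (chr4:57951806-57951856, minus strand). In Prdx3 (codon 109), Prdx4 (codon 127) and Prdx5 (codon 96) the window joins 2 exons. Prdx1 to Prdx4 are the typical 2-cysteine peroxiredoxins and share most of these bases: pairs among them had from 37 (Prdx2 and Prdx3) to 43 (Prdx1 and Prdx2) of 51 in common. Prdx6, the 1-cysteine member, shared from 25 (with Prdx1) to 29 (with Prdx4) with these genes, and Gpx1 shared 29 with Gpx4. Reads of these libraries come from the other end of the transcripts, so the windows describe the genes and not the counted tags.

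Gpx1 carried 49.3% of the counts of the set on average, more than all 6 peroxiredoxins together. Txn1 followed with 14.3% and Prdx1 with 12.6%, then Prdx6 with 7.20%, Prdx5 with 4.78%, Prdx2 with 4.03%, Prdx4 with 2.77%, Prdx3 with 2.47%, Cat with 1.75% and Gpx4 with 0.790%. A 3′ tag method yields about the same number of tags from a long and a short transcript, so these shares were not divided by length. Divided by exon length, Gpx1 held 56.0% and Txn1 22.2% of the set, Prdx1 held 6.81%, and Prdx5 and Prdx3 moved ahead of Prdx6, with 3.66% and 2.74% against 2.45%. Cat and Gpx4 stayed at the end, with 1.10% and 0.751%.

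**Figure D1:**
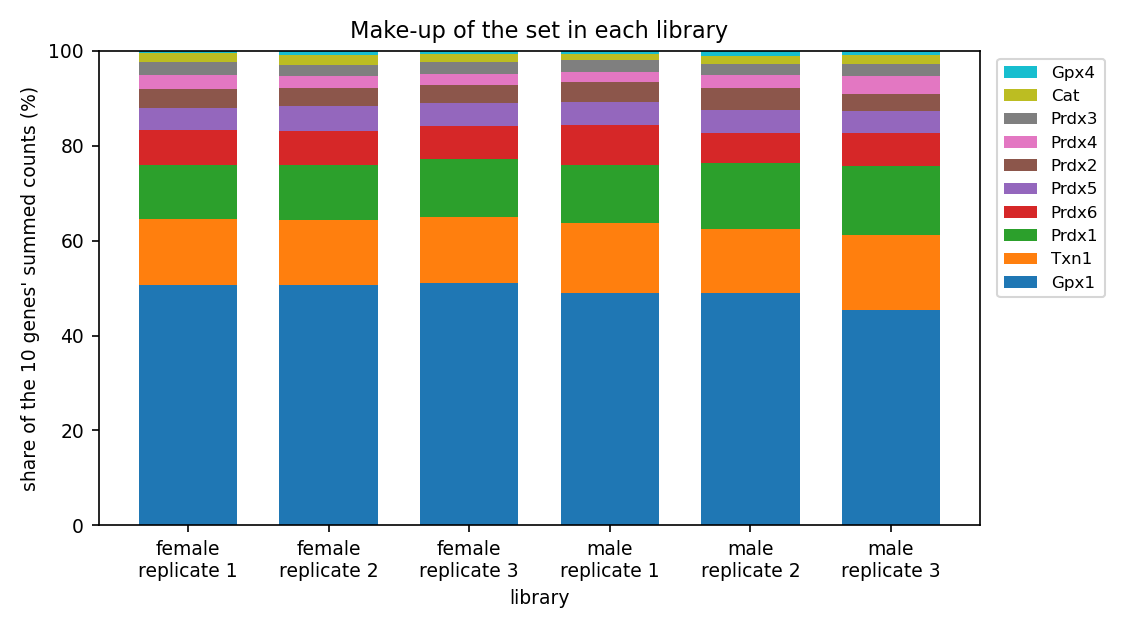
Stacked bars give the share (%) of each gene in the summed raw counts of the 10 genes, for each of the 6 libraries on the horizontal axis. Gpx1 takes 45.3% to 51.1% in every library, with its lowest value in male replicate 3.

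In CPM the order of the mean levels was the same, and the ranges of several neighbours overlapped. Gpx1 ranked 42 of the 8460 genes with enough counts to be tested, and 6 of the 10 genes lay in the top 10% by level. The libraries of Gpx1 lay above all those of Txn1, whose range of 650 to 816 CPM overlapped that of Prdx1 at 548 to 827 CPM. Within libraries Txn1 lay above Prdx1 except in male replicate 2. Prdx6, at 319 to 387 CPM, lay below both and above Prdx5, at 218 to 278 CPM. The ranges of Prdx5, Prdx2, Prdx4 and Prdx3 overlapped each with the next. Within every library Prdx5 lay above Prdx2, though at 278 against 276 CPM in male replicate 2, and Prdx2 lay above Prdx4. Prdx4 lay below Prdx3 in female replicate 3 and male replicate 1 and above it elsewhere. Cat lay below Prdx3 and above Gpx4 within every library, although its range overlapped that of Gpx4.

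**Figure D2:**
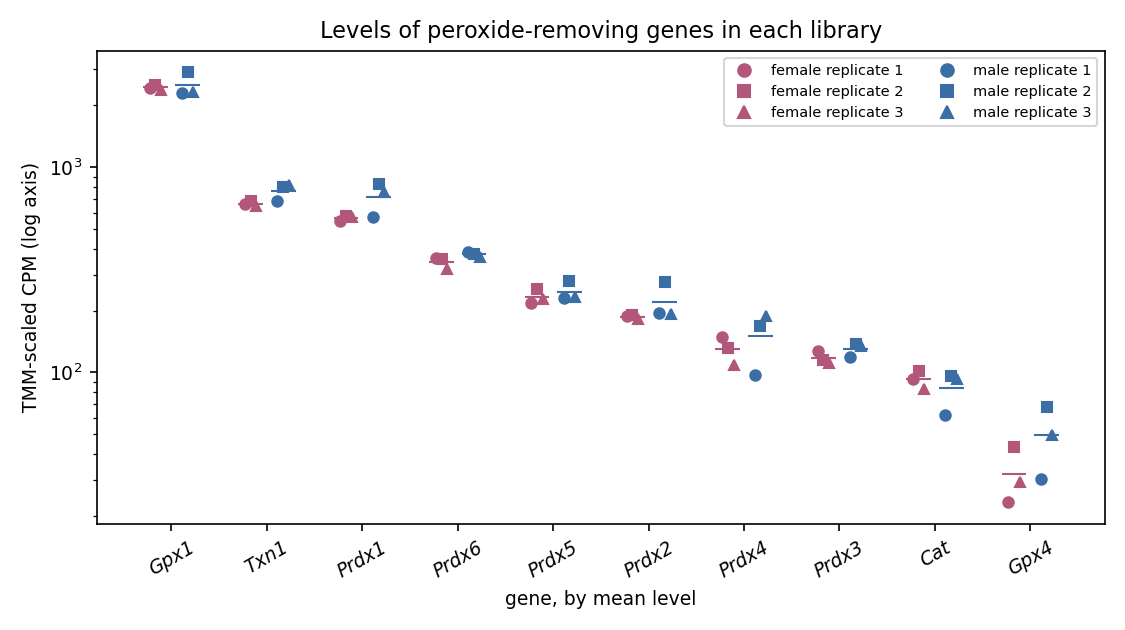
Points are TMM-scaled CPM on a log axis for each gene in each library, with females in red and males in blue, the replicate shown by the marker and the mean of each sex by a short line. The order from Gpx1 to Gpx4 spans from 2435 to 23.4 CPM within female replicate 1, and the male libraries of a gene lie farther apart than the female ones in most genes.

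Male and female libraries were compared for each gene, the contrast that the design implies. None of the 10 genes was called different in edgeR (quasi-likelihood test, Benjamini-Hochberg adjusted p under 0.05), which called 0.579% of all tested genes (49 of 8460), nor in DESeq2 or limma-voom. At an unadjusted p under 0.05 there were 2 of 10, Prdx1 and Gpx4, beside 11.3% of all tested genes, and DESeq2 and limma-voom each had 1, Prdx1. Point estimates were higher in males in 9 of 10 genes, Cat being the exception, and in 49.3% of all tested genes. The median log2 fold change (male minus female) was 0.17 against -0.003 over all tested genes. With library sizes left unscaled, 7 of 10 estimates were above 0. The median over all tested genes was then -0.09, and 9 of 10 estimates lay above that median. The count also moved with single male libraries. It was 7 of 10 above 0 without male replicate 2, 8 of 10 without male replicate 3 and 10 of 10 without male replicate 1. All 3 male libraries lay above all 3 female ones in 3 of 10 genes, Txn1, Prdx6 and Prdx2, as they did in 7.57% of all tested genes; none lay the other way, and 15.6% of all genes had no overlap in either direction. For 8 of 10 genes the 95% interval of the fold lay within 1.5-fold either way; the exceptions were Prdx1, up to 1.53-fold higher in males, and Gpx4, up to 2.12-fold.

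**Figure D3:**
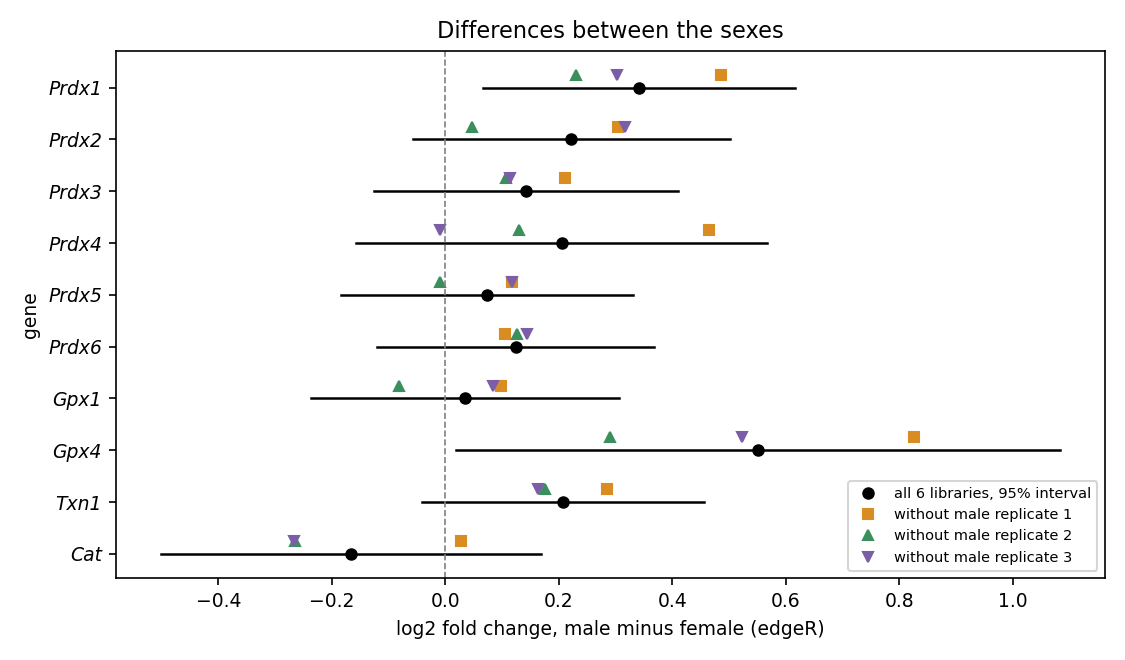
Black points and lines give the log2 fold change (male minus female, edgeR) and its 95% interval from all 6 libraries, and coloured markers the estimate without each male replicate. Intervals of Prdx1 and Gpx4 alone lie above 0, and of the 3 estimates without a male replicate both genes have the largest without replicate 1, at 0.49 and 0.83.

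Gpx1, the abundant cytosolic and mitochondrial glutathione peroxidase (ENSMUSG00000063856, chr9:108338903-108340343, GRCm38), had 2435, 2520 and 2386 CPM in female replicates 1 to 3 and 2286, 2902 and 2338 in male replicates 1 to 3. Its lowest and its highest library were both male. The means were 2447 ± 67.7 (SD, n = 3) and 2509 ± 342 CPM, and the log2 fold change was 0.03 ± 0.13 (SE; 95% interval -0.24 to 0.31; adjusted p = 0.956, edgeR). As a share of the set, Gpx1 ran the other way, from 50.7%, 50.7% and 51.1% in females to 49.0%, 48.9% and 45.3% in males. The share in male replicate 3 had an exact 95% binomial interval of 43.8% to 46.8%, against 49.9% to 52.4% in female replicate 3; such intervals cover counting error only. All female shares lay above all male ones, with means of 50.8 ± 0.268% and 47.7 ± 2.13%.

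Gpx4, which reduces lipid peroxides in membranes and so protects cells from ferroptosis (ENSMUSG00000075706, chr10:80047166-80056439), had the lowest level of the set. It had 23.4, 43.4 and 29.2 CPM in females and 30.3, 68.2 and 49.4 in males, from only 239 counts in all. Male replicates 2 and 3 lay above every female library, and male replicate 1 lay among them. The estimated log2 fold change was 0.55 ± 0.26 (95% interval 0.02 to 1.08; adjusted p = 0.413, edgeR). It was 0.29 without male replicate 2, 0.83 without male replicate 1 and 0.86 without female replicate 2.

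The counts of Gpx4 cannot be read alone, because a processed pseudogene of it, Gpx4-ps2 (chr10:45875305-45876086), held 774 counts, 76.4% of the counts of both. Over 762 aligned bases the Gpx4 transcript and the pseudogene differ at 2 positions, counted from the start of the alignment, C151T and C466T, with the base of Gpx4 first. Both fall in the coding part, shown here with the differing base in capitals, and the last 296 bases of the Gpx4 transcript, from which 3′ tags come, are identical in both.
Gpx4 at C151T: tgcatcgtcaccaaCgtggcctcgcaatg
Gpx4-ps2 at C151T: tgcatcgtcaccaaTgtggcctcgcaatg
Gpx4 at C466T: ctcattgataagaaCggctgcgtggtgaa
Gpx4-ps2 at C466T: ctcattgataagaaTggctgcgtggtgaa

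C151T lies within the selenocysteine window printed above, so that 50 of its 51 bases are shared. Reads from the identical end cannot be assigned to either gene by their sequence, and the sources used here do not say how such reads were counted. Gpx4-ps2 had 104, 129 and 107 CPM in females and 82.7, 210 and 142 in males, and its log2 fold change was 0.31 ± 0.20 (adjusted p = 0.596, edgeR), or -0.02 without male replicate 2. Its highest library was male replicate 2, as for Gpx4. Added together, the pair had 127, 173 and 136 CPM in females and 113, 278 and 192 in males, and male replicate 1 was then the lowest of all libraries. The log2 fold change of the sum was 0.38 ± 0.20 (adjusted p = 0.484, edgeR), and the pair would hold 3.22% of the set, between Prdx2 and Prdx4.

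**Figure D4:**
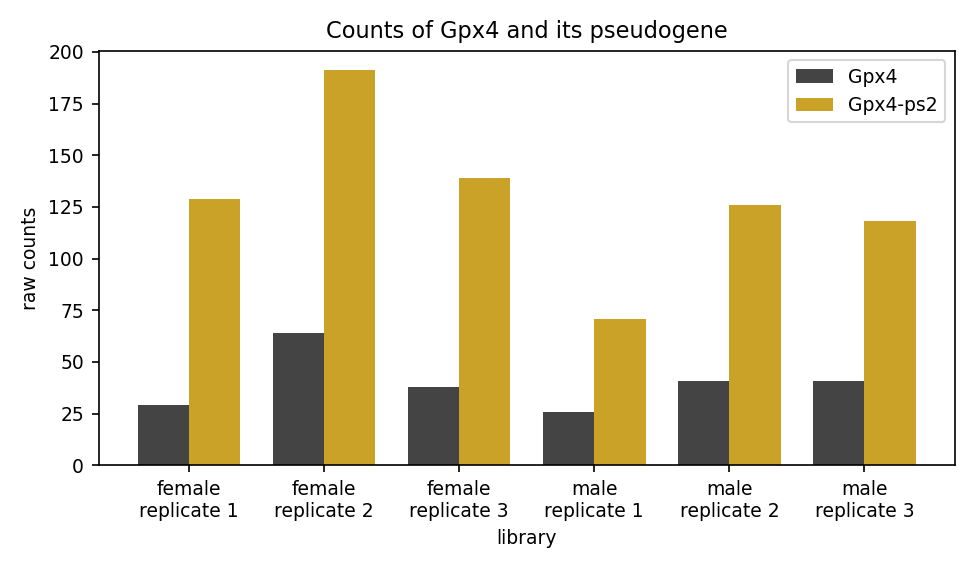
Bars give the raw counts of Gpx4 and of the pseudogene Gpx4-ps2 in each library. Counts of the pseudogene exceed those of Gpx4 in every library, with 191 against 64 in female replicate 2, the library with the most counts of both.

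Prdx1, the most abundant peroxiredoxin and a cytosolic one (ENSMUSG00000028691, chr4:116685544-116700822), had the largest male to female difference of the set after Gpx4. It had 548, 576 and 569 CPM in females and 570, 827 and 753 in males. Male replicates 2 and 3 stood apart, while male replicate 1 lay within the female range. The means were 564 ± 14.6 and 716 ± 132 CPM, and the estimated log2 fold change was 0.34 ± 0.13 (95% interval 0.07 to 0.62; adjusted p = 0.303, edgeR). Its share of the set lay higher in all males than in all females, at 13.6 ± 1.23% against 11.7 ± 0.417%. Male replicate 1 was above female replicate 3 only by 12.21% against 12.19%, well within counting error. Prdx1 resembles 4 other genes over at least 81 bases at 95% identity or more, of which Sec23b was in the table, with 433 counts and a match of 101 bases.

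Prdx2, the cytosolic peroxiredoxin best known from red cells (ENSMUSG00000005161, chr8:84969587-84974834), had 188, 191 and 182 CPM in females and 195, 276 and 192 in males. Male replicate 2 was far above the rest, and the lowest male library was above the highest female one by less than 1 CPM unit. The log2 fold change was 0.22 ± 0.14 (adjusted p = 0.568, edgeR), and without male replicate 2 it was 0.05. The sum of the erythroid markers was also highest in male replicate 2, at 492 CPM, of which Car1 had 158 and Car2 140. The part of erythroid cells in the Prdx2 values was not tested. The last 351 bases of the annotated span of Prdx2 overlap that of Junb, at chr8:84974484-84974834. Junb is a transcription factor gene of the early stress response on the opposite strand. Whether exons of both genes cover that stretch was not checked. Junb had 105, 89.4 and 87.7 CPM in females and 155, 175 and 153 in males and rose by 0.77 ± 0.13 on the log2 scale (adjusted p = 0.0018, edgeR). The sources used here do not say whether strand entered the counting. Unless it did, reads from any exon stretch common to both genes cannot be told apart. The part of Junb in the Prdx2 values was not tested.

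Prdx3, the peroxiredoxin of mitochondria (ENSMUSG00000024997, chr19:60864051-60874556), was among the steadiest genes of the set. It had 127, 115 and 112 CPM in females and 119, 138 and 135 in males, and the sexes overlapped. The estimated log2 difference was 0.14 ± 0.13 (adjusted p = 0.746, edgeR). Prdx4, the secretory member of the endoplasmic reticulum (ENSMUSG00000025289, chrX:155323918-155340754), had 148, 132 and 109 CPM in females and 96.7, 168 and 188 in males. Male replicate 1 was its lowest library and male replicate 3 its highest, nearly at the opposite ends of a range that enclosed all female values. The log2 fold change was 0.20 ± 0.18 (adjusted p = 0.719, edgeR), and it was -0.01 without male replicate 3 and 0.46 without male replicate 1.

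Prdx5, an atypical 2-cysteine peroxiredoxin of mitochondria, peroxisomes and cytosol (ENSMUSG00000024953, chr19:6906697-6910106), had 218, 255 and 228 CPM in females and 232, 278 and 233 in males. The second replicate was the highest in each sex, and the groups overlapped. On the log2 scale the difference was 0.07 ± 0.12 (adjusted p = 0.885, edgeR). Prdx6, which uses glutathione rather than thioredoxin and also acts on phospholipids (ENSMUSG00000026701, chr1:161240112-161251219), had 361, 356 and 319 CPM in females and 387, 376 and 366 in males. Every male library lay above every female one, and male replicate 1 was the highest, unlike in any other gene of the set. The difference was small, with a log2 fold change of 0.12 ± 0.12 (95% interval -0.12 to 0.37; adjusted p = 0.764, edgeR).

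Together the 6 peroxiredoxins held 33.1%, 32.7% and 32.5% of the counts of the set in females and 34.3%, 34.8% and 36.2% in males. All male shares lay above all female ones. For the typical 2-cysteine members Prdx1 to Prdx4 the means were 20.8 ± 0.327% and 23.1 ± 1.86%, and male replicate 1 lay within the female range. These shares add up to a whole with that of Gpx1 and the rest, so they are not separate evidence.

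Txn1, the cytosolic thioredoxin that recharges most peroxiredoxins (ENSMUSG00000028367, chr4:57943373-57956411), had 665, 681 and 650 CPM in females and 687, 805 and 816 in males. The 3 male libraries lay above the 3 female ones, male replicate 1 only just. The means were 665 ± 15.9 and 769 ± 71.3 CPM, and the log2 fold change was 0.21 ± 0.12 (95% interval -0.04 to 0.46; adjusted p = 0.541, edgeR). Cat, the peroxisomal enzyme (ENSMUSG00000027187, chr2:103453849-103485160), had 92.6, 102 and 83.1 CPM in females and 61.7, 96.5 and 92.8 in males. Male replicate 1 was low, and the other 2 male libraries lay within the female range. The log2 fold change was -0.17 ± 0.16 (95% interval -0.50 to 0.17; adjusted p = 0.773, edgeR), and without male replicate 1 it was 0.03.

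Male replicate 1 decided the calls. Without it, 2 of 10 genes passed the threshold, where 4.62% of all tested genes did (415 of 8989). Prdx1 then rose in males by 0.49 on the log2 scale (adjusted p = 0.00574, edgeR) and Gpx4 by 0.83 (adjusted p = 0.0466). Prdx4 stood at 0.46 (adjusted p = 0.0518), and the pseudogene Gpx4-ps2 at 0.60 (adjusted p = 0.0158). Without each of the other 5 libraries in turn, 0 of 10 genes were called.

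For the 10 genes the spread between libraries was larger among males than counting error gives. The median coefficient of variation over the 10 genes was 6.83% among females, where counting alone would give 6.01%, and 16.0% among males, where it would give 7.58%. In males the chi-square of the counts per degree of freedom, which is about 1 for counting error alone, was 31.6 for Gpx1, 18.9 for Prdx1 and 12.9 for Prdx4, against 2.61, 0.499 and 3.75 in females. Prdx3 and Prdx6 stayed at 0.643 and 0.233 in males. At a given coefficient of variation this chi-square grows with the counts, so it does not rank the genes by spread. Gpx4, with the largest coefficient of the 10 among males (38.4%), had 5.45. Over all genes with at least 10 counts, pairs of unscaled libraries gave 2.40 to 3.55 in females and 1.98 to 4.09 in males. Male replicate 2 was the highest library of 6 of the 10 genes, and of 26.1% of all tested genes.

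The biological coefficient of variation in the fit, which sets aside counting error, ran from 0.0765 for Prdx3 to 0.154 for Gpx4. Gpx4, where the trend at its level was 0.0873, and Prdx4, at 0.131 with a trend of 0.0887, stood highest above it among the 10. The median of the 10 genes was 0.103 against 0.083 for all tested genes. These medians compare genes of unlike level, since the trend at the levels of the 10 ran from 0.0842 for Cat to 0.126 for Gpx1. Of the 10 genes 5 lay above the trend at their level, as did 37.2% of all tested genes.

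**Figure D5:**
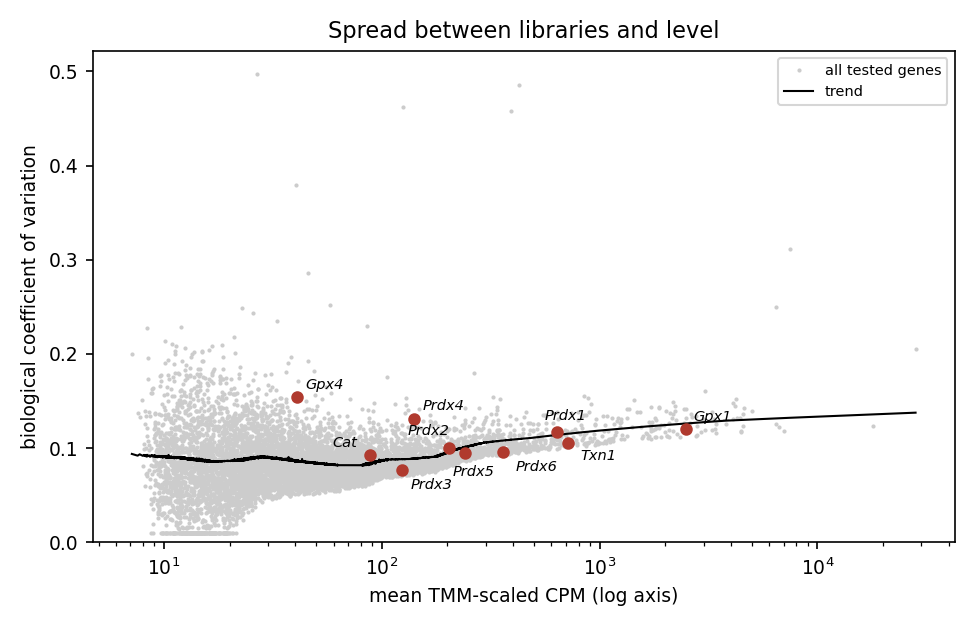
Each grey point is a tested gene, with its mean TMM-scaled CPM on a log axis and its biological coefficient of variation from edgeR on the vertical axis, the black line is the trend with level, and red points are the 10 genes. Gpx4 (0.154) and Prdx4 (0.131) stand above the trend, and Prdx3 (0.0765) lies below it.

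Over the 6 libraries most of the genes moved together. Of the 45 pairs of genes, 44 had a positive Pearson correlation of log2 CPM and 10 were above 0.8, with a median of 0.58. All genes share the 6 libraries and their scaling, so these are descriptions. Male replicate 2 was the highest library of 6 of the 10 genes. The share of such pairs among other genes is not given here, so the values are not read as particular to the set. The closest pair was Prdx1 and Txn1, at 0.96. Gpx4 was closest to Prdx1, at 0.90, Prdx2 and Gpx1 to each other, at 0.90, Prdx5 to Gpx4, at 0.88, and Prdx3 to Txn1, at 0.86. Prdx4 was closest to Prdx3, at 0.84, Cat to Prdx4, at 0.75, and Prdx6 to Prdx3, at 0.58. Cat and Prdx6 were the pair below 0, at -0.25. Genes outside the set were ranked by how like their pattern was to the summed level of the 10 over these libraries. The highest were Zfp764 (r = 0.997), Fh1 (0.993), Timm50 (0.993), Fopnl (0.992) and Sec61b (0.992). They were picked for the highest r among many genes over only 6 libraries. High values can follow from that choice alone, so they are not read as a link to the set. Zfp764 had the lowest mean level of those named, at 18.5 CPM.

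As a whole the set took 0.498%, 0.497% and 0.472% of all counts in females and 0.478%, 0.525% and 0.487% in males. The sexes overlapped, at 0.489 ± 0.015% and 0.497 ± 0.025%. In scaled units the sum was 4807, 4971 and 4666 CPM in females and 4663, 5934 and 5162 in males, a log2 ratio of the means of 0.13. That ratio was 0.03 without male replicate 2 and 0.20 without male replicate 1. Male replicate 2 was again the highest, and male replicate 1 was level with the lowest female library. Without Gpx1 the log2 ratio was 0.21, with 2368 ± 85.9 CPM in females and 2744 ± 335 in males.

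The genes that supply and surround these enzymes were read from 7 lists of 83 genes, of which 79 were in the table and 64 were tested. None was called in either direction by edgeR, DESeq2 or limma-voom, where edgeR called 0.579% of all tested genes. In edgeR 4 of 64 had an unadjusted p under 0.05, beside 11.3% of all tested genes. Estimates were above 0 in 31 of 64, beside 49.3% of all tested genes, with a median log2 fold change of -0.02. Of the other glutathione peroxidases and peroxiredoxins, only Gpx3, the secreted form, could be tested, at 21.8 CPM and a log2 fold change of 0.16 ± 0.26. Among 17 tested thioredoxin and glutaredoxin partners, 8 were above 0. Txnrd1, the cytosolic thioredoxin reductase, had 126 ± 0.747 CPM in females and 125 ± 12.7 in males, a log2 fold change of 0.00 ± 0.13. Txn2, the mitochondrial thioredoxin, was at 0.10 ± 0.12.

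Gsr, which recharges the glutathione that Gpx1 and Gpx4 use, was the partner with the highest level and the smallest p. It had 319, 284 and 273 CPM in females and 234, 188 and 223 in males. All female libraries lay above all male ones, opposite to the direction of 9 of the 10 enzymes. On the log2 scale males differed from females by -0.43 ± 0.13 (adjusted p = 0.155, edgeR), and without male replicate 1 it was -0.50 (adjusted p = 0.0227). Also past the threshold without that library were Bach1, a repressor of antioxidant genes, at -1.44 (adjusted p = 0.0157, edgeR), and the glutaredoxin Glrx3, at 0.45 (adjusted p = 0.0428). These 3 companion genes stand beside 4.62% of all tested genes (415 of 8989) called in that fit. The Bach1 estimate there rests on only 4.99 and 14.5 CPM in male replicates 2 and 3.

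The superoxide dismutases make hydrogen peroxide from superoxide. Of the 3 tested genes in the list of dismutases and their chaperone, 2 were above 0, Sod1 and the chaperone Ccs (0.13 ± 0.24). Sod1, the cytosolic form, had 721 ± 56.9 CPM in females and 853 ± 139 in males, with a log2 fold change of 0.24 ± 0.13, and Sod2, the mitochondrial form, was at -0.23 ± 0.14. Of 9 tested genes of NADPH supply, 3 were above 0. Pgls of the pentose phosphate pathway was at 0.16 ± 0.13 and Idh2 of mitochondria at -0.03 ± 0.13, while G6pdx, the entry enzyme of that pathway, was at -0.28 ± 0.12 (adjusted p = 0.381, edgeR). Nnt, the mitochondrial transhydrogenase, had 16 counts in all 6 libraries together and was not tested.

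All 10 genes of selenoprotein synthesis were tested, of which 6 were above 0. Sephs2, which makes the selenium donor, was at 0.18 ± 0.12 and Sephs1 at -0.31 ± 0.16. In the list of peroxisome import and peroxide-forming oxidases, where Cat is placed, 9 of 16 tested genes were above 0, led in level by Pex7 (0.08 ± 0.18) and Pex13 (0.30 ± 0.19). Among 8 tested regulators that sense peroxide, 2 were above 0. Nfe2l2, the transcription factor that drives many antioxidant genes, had 106 ± 8.95 CPM in females and 105 ± 20.7 in males (log2 fold change -0.01 ± 0.15). Trp53 was at -0.33 ± 0.12 (adjusted p = 0.273, edgeR), and Bach1, at 28.5 ± 1.73 CPM in females and 13.5 ± 8.03 in males, was at -0.99 ± 0.30 (adjusted p = 0.192).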

How the data were processed

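Values are the authors' raw counts, integers for each gene and library without scaling, per the file headers. The submitters' processing notes name featureCounts 2.0.1, HISAT2 2.2.1, Trim Galore 0.6.7, UMI-tools and DESeq2, and the genome builds GRCh38 and GRCm38. Whether molecular identifiers were collapsed, how reads with several matches were counted and whether strand was used are not given in the sources used here. Groups came from the sample titles.

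Genes were kept with filterByExpr (minimum count 10, minimum total 15), scaled by TMM and tested male minus female in edgeR 4.0.16 (R 4.3.3), with adjustment over all 8460 tested genes. Steps were tested on simulated data. Standard errors are the fold change over the root of F, and correlations use log2 CPM with 0.5 CPM added. Near-copies were found with BLAST+ in GENCODE M21 transcripts. Alternatives were other scalings and filters, DESeq2 1.42.0, limma-voom (limma 3.58.1), a replicate block and leaving out each library; adding the pseudogene counts and leaving out Gpx4 were chosen after seeing the data. Within each sex counts differed between libraries beyond counting error. For pairs of libraries the chi-square per degree of freedom was 2.40 to 3.55 in females and 1.98 to 4.09 in males.

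Named are all members, the 2 highest tested genes of each companion list and any past the threshold, each member's most correlated member, the 5 outside genes most like the sum, and the leading gene of marker lists. Gpx4-ps2, Junb, Sec23b, Txnrd1, Nnt, G6pdx, Ccs, Bach1, Glrx3, Car2, Tfrc, Cpa3, Hdc, Prg2, Ms4a1 and Hba-a1 were named after their values were seen. Members and lists were chosen with earlier results of these data known.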

Additional observations from a re-analysis of the deposited data

How the results depend on the processing

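The count of peroxide-removing genes called different was 0 under every alternative run but leaving out male replicate 1, and leaving out each library in turn gave 0 to 2. Companion genes ranged from 0 to 3 in the same way, and all genes called from 23 (without male replicate 3) to 415 (without male replicate 1), with 32 without female replicate 2 and 49 from all libraries. Without a filter 116 genes were called, and 78 with the replicate block. Same-numbered libraries of the 2 sexes had correlations of their deviations of 0.0297, 0.0343 and 0.048, each the highest of its library. The other pairings of a female and a male library ran from -0.0327 to -6e-04. The main fit had no replicate block because the titles only number the replicates. Whether same-numbered libraries share a batch cannot be told from the labels. Of 150 fold changes of the 10 genes under alternatives, 148 kept their side of the threshold and 6, none called, changed sign: Gpx1 to -0.07 and Prdx5 to -0.02 with unscaled library sizes, Gpx1 to -0.08 and Prdx5 to -0.01 without male replicate 2, Prdx4 to -0.01 without male replicate 3, and Cat to 0.03 without male replicate 1. With unscaled library sizes the median over all tested genes was -0.09. Causes were not tested. With the pseudogene counts added to Gpx4, 0 of the 10 genes, 0 companion genes and 51 of all genes were called. Depth limits Gpx4 most, with 239 counts, and the intervals of its fold and that of Prdx1 reach beyond 1.5-fold.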
